A study of Mus musculus with 2 samples.

Results

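The 10 genes described here act in the last steps by which an erythroblast becomes a reticulocyte: Bnip3l, Ulk1, Gabarapl2 and Map1lc3b in mitophagy and autophagy, Ube2o, Ube2h, Fbxo7, Trim58 and Mkrn1 in ubiquitin-driven remodeling, and Xpo7 in nuclear export. They were taken by symbol from the 32285 genes counted in single-cell RNA sequencing of mouse femoral bone marrow, and all 10 were present, each under 1 gene identifier. During terminal erythropoiesis the cell fills with hemoglobin, condenses and expels its nucleus, and then clears its mitochondria, ribosomes and other organelles. Damaged or surplus mitochondria are marked by receptors such as BNIP3L, wrapped by membranes that carry lipid-bound ATG8 proteins, and delivered to lysosomes, while ubiquitin enzymes send ribosomal and cytoskeletal proteins to the proteasome. RNA made before the nucleus is lost is all that the reticulocyte has.

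The series holds 1 wild-type library (WT) and 1 double knockout library (DKO, VavCre:Ddx41 fl/fl, cGAS-/-), each from 1 mouse at 2 months of age. In the DKO mouse Cre recombinase driven by the Vav promoter, which is active throughout the blood lineages, deletes the DEAD-box helicase gene Ddx41, and the DNA sensor cGAS is knocked out independently of Cre. The WT mouse was a littermate control which, by the study's methods, carried floxed Ddx41 without Cre and normal cGas alleles. With 1 library per genotype no difference between genotypes can be tested: each value belongs to these 2 libraries, and the intervals printed below are 95% exact intervals for counting error only, not for differences between mice.

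After filtering, 19074 WT and 13927 DKO cells remained, with 122925320 and 117436611 unique molecular identifiers (UMIs, each standing for 1 captured RNA molecule), of which 7661 WT and 6327 DKO cells were erythroid. Levels are given as CPM, the UMIs of a gene per 1000000 UMIs. Ddx41 was at 20.1 CPM in WT and 7.92 in DKO, and Cgas at 13.4 and 7.17 CPM. These are reads from transcript ends that may lie outside the deleted exons, so they check the labels only in part. Cells shared 79 barcodes between the libraries, 16 of them erythroid in both. All 8 neutrophil markers had UMIs in erythroid cells, at 749 to 2858 CPM summed over the list in WT stages and 309 to 2705 CPM in DKO stages, and the other lineage lists stayed at or below 144 CPM in WT and 94.4 CPM in DKO, with none of the 3 endothelial markers at 0 over the stages together. In WT, a bound from S100a8 and S100a9 puts free RNA at no more than 10.5% of UMIs in the lowest stage and 2.55% in the highest. With free RNA subtracted in both libraries, by the WT empty-droplet profile, the hemoglobin-matched log2 ratio of DKO over WT, described below, went from 0.58 to 0.61 for Xpo7 and from -0.50 to -0.49 for Gabarapl2.

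Erythroid cells were ordered by the share of their UMIs that came from 8 hemoglobin genes, in 5 stages: under 15%, 15 to 40%, 40 to 75%, 75 to 90%, and 90% or more. The stages held 728, 565, 1292, 3735 and 1341 WT cells and 561, 493, 1263, 1426 and 2584 DKO cells. Genes of the marker lists, which also entered the choice of cells, followed this order: Car1, an early erythroid carbonic anhydrase, went from 2334 to 127 CPM of non-hemoglobin UMIs in WT and from 2316 to 43.9 in DKO between the lowest and the highest stage, while Alas2, the erythroid enzyme that starts heme synthesis, went from 191 to 16501 and from 190 to 19179. Median depth was 5223 to 7948 UMIs per cell in the 4 upper WT stages and 7942.5 to 11886 in the DKO stages, with 2710 and 2504 in the lowest stage.

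The late cells of the libraries did not sit at the same hemoglobin share. Among cells of 75% or more, the median share was 88.2% in 5076 WT cells and 91.2% in 4010 DKO cells, so that 26.4% of the WT cells and 64.4% of the DKO cells were past the 90% boundary. Within 2 percentage points of that boundary lay 1300 WT cells below and 877 above, and 585 DKO cells below and 1001 above. A comparison of the 75 to 90% stage therefore sets the bulk of the WT late cells beside the less filled part of the DKO late cells, and each member's ratio at this stage is given below with its value for all cells of 75% or more.

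**Figure D1:**
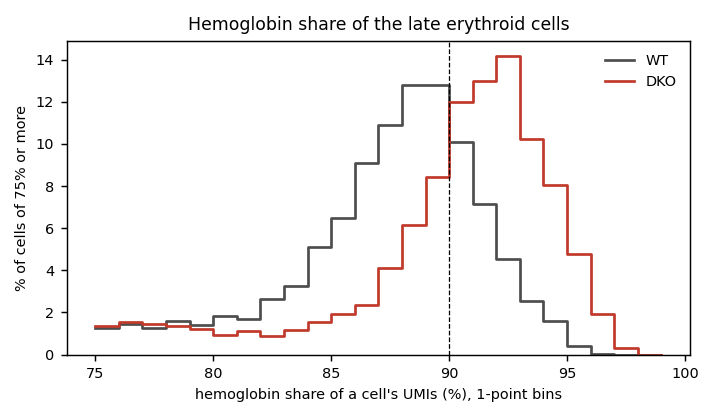
Share of late erythroid cells (y axis, percent of cells with 75% or more hemoglobin UMIs) in each 1-point bin of hemoglobin share (x axis, percent) for WT (grey, 5076 cells) and DKO (red, 4010 cells), with the 90% boundary dashed. The fullest bin started at 88% in WT and at 92% in DKO.

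Promoter sequences were matched for 7 members, Ulk1, Ube2h, Trim58, Fbxo7, Gabarapl2, Map1lc3b and Mkrn1, in 10 RefSeq start sites. The sequences of Gabarapl2 and Map1lc3b are shown because these genes are the pair that was lower in DKO in each stage, and that of the Ube2h start inside the gene because it was the window among the 10 that held a GATA match. Each run is the 250 bases before the start, on the strand of the gene (GRCm38.p6), with capitals for the motif matches.
Gabarapl2, chr8:111940453-111940702, plus strand: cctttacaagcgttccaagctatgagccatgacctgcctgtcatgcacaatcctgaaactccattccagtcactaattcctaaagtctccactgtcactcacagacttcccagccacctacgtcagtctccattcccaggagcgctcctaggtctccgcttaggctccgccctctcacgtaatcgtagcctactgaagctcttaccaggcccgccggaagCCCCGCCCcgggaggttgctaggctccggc
Map1lc3b, chr8:121590188-121590437, plus strand: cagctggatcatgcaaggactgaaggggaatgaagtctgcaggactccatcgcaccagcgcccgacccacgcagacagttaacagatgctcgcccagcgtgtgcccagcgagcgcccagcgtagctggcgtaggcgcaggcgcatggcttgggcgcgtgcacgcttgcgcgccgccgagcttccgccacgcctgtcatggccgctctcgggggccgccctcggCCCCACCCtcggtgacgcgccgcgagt
Ube2h, internal start, chr6:30243804-30244053, minus strand: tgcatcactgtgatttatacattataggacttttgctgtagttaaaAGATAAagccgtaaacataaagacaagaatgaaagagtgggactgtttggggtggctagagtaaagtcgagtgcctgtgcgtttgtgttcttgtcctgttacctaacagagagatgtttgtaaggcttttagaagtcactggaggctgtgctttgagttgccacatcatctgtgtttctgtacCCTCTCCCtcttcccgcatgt
Both ATG8 promoters held 1 match to CCNCNCCC, the letters of the CACC box read by KLF1 and other Krüppel-like factors, at 30 to 23 bases before the start of Gabarapl2 and 27 to 20 bases before that of Map1lc3b. Searched on both strands, these letters stood in 7 of the 10 member windows, of 5 genes, and in 45.9% of all 32851 RefSeq windows of this length. The GATA letters AGATAA or TGATAA stood in the internal Ube2h window, 204 to 199 bases before the start, and in 16.6% of all windows. CACGTG, the letters of the TFEB family, stood in no member window and in 6.02% of all. A quadruplex pattern, 4 runs of at least 3 G with 1 to 7 bases between them on either strand, stood in 1 of the 10 windows, at the outer Ube2h start, and in 16.7% of all. There it overlapped the CCNCNCCC matches at 53 to 46 and 38 to 31 bases before the start. A match describes letters, not a bound site.

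The members fell into 2 courses along the hemoglobin share. Bnip3l, Gabarapl2, Map1lc3b, Mkrn1 and Ube2o were past 1.5-fold higher, and Xpo7, Trim58, Ulk1 and Fbxo7 past 1.5-fold lower, in the 90% stage than in the 40 to 75% stage in both libraries, as CPM of non-hemoglobin UMIs. From 75 to 90% to 90% or more Ube2o no longer gained in WT, with a log2 ratio of -0.07 (-0.15 to 0.00), and gained 0.29 (0.24 to 0.34) in DKO. Ube2h fell between them, with a log2 ratio of the 90% over the 40 to 75% stage of -0.55 in WT and 0.50 in DKO. Thus 5 of 10 members were past 1.5-fold higher in both libraries where 6.39% of 2690 genes in WT and 6.37% of 2764 genes in DKO were, and 4 were past 1.5-fold lower where 79.0% and 84.6% of genes were. As CPM of all UMIs, in which hemoglobin takes most of the count, none of the 10 was higher in both, beside 0.223% of genes in WT and 0.326% in DKO, and 5 were lower in both, beside 98.4% and 98.1%.

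**Figure D2:**
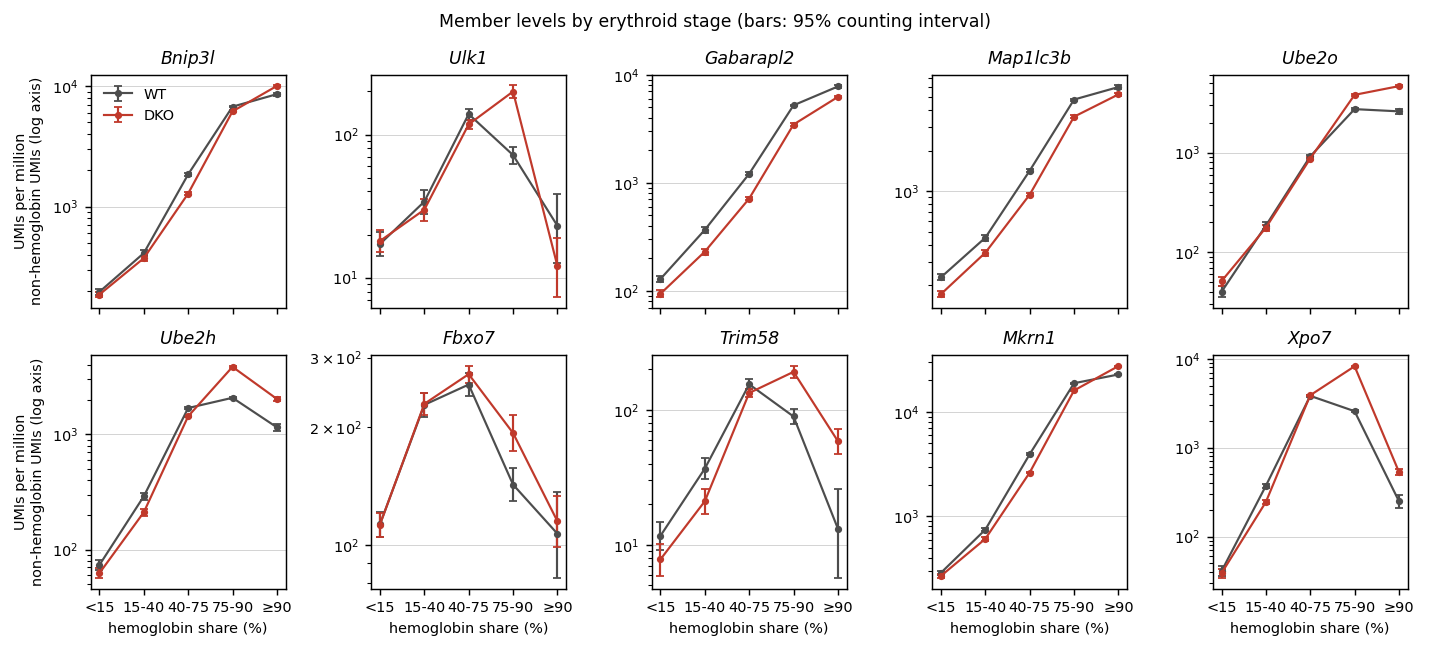
Level of each member (y axis, CPM of non-hemoglobin UMIs, log axis) in the 5 erythroid stages (x axis, hemoglobin share in percent) for WT (grey) and DKO (red), with bars for the 95% counting interval. Bnip3l, Gabarapl2, Map1lc3b and Mkrn1 climbed to the last stage in both libraries, and Xpo7 fell from 3825 to 250.3 in WT between the 40 to 75% and the 90% stage.

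Bnip3l encodes the mitochondrial receptor that reticulocytes need to clear their mitochondria (chromosome 14, 66985239 to 67008877, minus strand, mm10). Its level in the 5 stages was 189, 296, 758, 949 and 720.1 CPM of all UMIs in WT. The DKO levels were 180.3, 267, 535, 929.9 and 742 CPM. Both libraries peaked in the 75 to 90% stage, at 5.22 and 7.83 UMIs per cell, and were furthest apart in the 40 to 75% stage, where the log2 ratio of DKO over WT was -0.50 (interval -0.55 to -0.45). In the other 4 stages the ratio lay between -0.15 and 0.04, and over all cells of 75% or more it was -0.14. Among other marrow lineages the highest level was in the megakaryocyte class, where the share of non-hemoglobin UMIs was 32.7-fold lower than in the 90% stage in WT and 39.0-fold lower in DKO.

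Gabarapl2 and Map1lc3b encode ATG8 proteins, which are joined to the lipid of the growing autophagosome and hold its cargo (Gabarapl2, chromosome 8, 111940703 to 111953612, plus strand; Map1lc3b, chromosome 8, 121590361 to 121598760, plus strand). Gabarapl2 was at 123, 263, 495, 734 and 655 CPM of all UMIs across the WT stages and at 90.4, 164, 298, 522 and 462 CPM across the DKO stages. Map1lc3b was at 220.2, 324, 583, 679 and 502 CPM in WT and at 166, 249, 394, 542 and 389.9 CPM in DKO. For both genes the DKO level was the lower one in each of the 5 stages. The log2 ratio of DKO over WT for Gabarapl2 was -0.45, -0.68, -0.73, -0.49 and -0.50 from the lowest to the highest stage, with every interval below 0, the nearest upper bound being -0.30. For Map1lc3b it was -0.41, -0.38, -0.57, -0.32 and -0.37, again with every interval below 0. Over all cells of 75% or more the ratio was -0.56 for Gabarapl2 and -0.51 for Map1lc3b, beside a median of -0.34 over 597 genes. In the lowest 3 stages 2.62 to 5.03% of genes lay below the Gabarapl2 ratio and 5.995 to 10.2% below that of Map1lc3b. These shares were 19.8% and 24.4% at 75 to 90%, and 37.2% and 45.01% at 90% or more. At 90% or more the lower DKO level is therefore no result about the pair. Per cell, where DKO cells of the 4 upper stages held more UMIs, the direction was not kept in every stage. Gabarapl2 stood at 4.04 UMIs in WT and 4.40 in DKO in the 75 to 90% stage, and its log2 ratio of UMIs per cell was between -0.17 and 0.12 over the stages. It was below 0 at 15 to 40% and 40 to 75% and above 0 in the other 3 stages. Map1lc3b per cell had log2 ratios of 0.12 to 0.29. After weighting both libraries to the same distribution over 5-point bins of hemoglobin share, the log2 ratio was -0.50 for Gabarapl2 and -0.37 for Map1lc3b, and as CPM of non-hemoglobin UMIs it was -0.37 and -0.25. Gabarapl2 was also lower in DKO outside the erythroid lineage: of 9 other lineages with at least 100 UMIs in both libraries together, 6 had an interval below 0 and none above, with log2 ratios of -0.45 to -0.08. Neutrophils held 130 CPM of Gabarapl2 in WT and 105 in DKO, a log2 ratio of -0.30 (interval -0.39 to -0.22). Map1lc3b had an interval below 0 in 4 of 10 lineages, with ratios of -0.42 to 0.03. The share of all genes with such intervals in these lineages was not computed, so these counts are no result about the pair.

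Ulk1 encodes the kinase that starts autophagosome formation (chromosome 5, 110784488 to 110810097, minus strand). It was sparse, at 16.5, 24.4, 56.8, 10.1 and 1.94 CPM of all UMIs in WT, and at 17.4, 21.3, 49.1, 30.1 and 0.896 CPM in DKO. The 90% stage rested on 14 UMIs in WT and 19 in DKO. The log2 ratio of DKO over WT lay between -0.21 and 0.07 in the lowest 3 stages, and in the 75 to 90% stage DKO was higher, with a log2 ratio of 1.57 (interval 1.32 to 1.83). Over all cells of 75% or more the ratio was 0.52 (0.28 to 0.77), from 222 WT and 381 DKO UMIs.

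Ube2o encodes the hybrid E2 and E3 enzyme that marks ribosomal proteins of reticulocytes for the proteasome (chromosome 11, 116537740 to 116581447, minus strand). Its levels were 38.4, 133, 375, 386 and 219 CPM of all UMIs in WT, and 49.4, 126, 364, 575 and 346 CPM in DKO. The intervals of the ratio spanned 0 at 15 to 40% and 40 to 75%. DKO was higher in the lowest stage, with a log2 ratio of 0.36 (0.12 to 0.60). It was also higher in the last 2 stages, with log2 ratios of 0.58 (0.53 to 0.62) and 0.66 (0.58 to 0.74). At 75 to 90% 58.9% of genes lay below the Ube2o ratio, so this value is no result about Ube2o. That share was 81.7% in the lowest stage and 90.03% at 90% or more. Over all cells of 75% or more the log2 ratio was 0.32 (0.29 to 0.36), and the hemoglobin-matched ratio was 0.46.

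Ube2h encodes the E2 enzyme that works with the CTLH ubiquitin ligase complex, which is remodeled during erythroid maturation (chromosome 6, 30211289 to 30304539, minus strand). Ube2h stood at 70.5, 208, 693, 293 and 97.0 CPM of all UMIs in the WT stages and at 60.1, 150.1, 599, 583 and 151 CPM in the DKO stages. DKO was lower under 15%, with a log2 ratio of -0.23 (-0.42 to -0.04), at 15 to 40%, with -0.47 (-0.60 to -0.34), and at 40 to 75%, with -0.21 (-0.26 to -0.16). It was higher at 75 to 90%, with a ratio of 0.99 (0.94 to 1.04), and at 90% or more, with 0.63 (0.52 to 0.76). For all cells of 75% or more the ratio was 0.34 (0.30 to 0.39). In 6 of 9 other lineages with at least 100 UMIs the interval of the Ube2h ratio was above 0, with log2 ratios of 0.10 to 0.80 over the 9. The share of all genes with such intervals was not computed, so this count is no result about Ube2h. Plasma cells, with 56 WT and 38 DKO UMIs, had -0.69.

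Fbxo7, an F-box protein that binds the proteasome and the ubiquitin ligase core, was the earliest of the members (chromosome 10, 86021972 to 86051873, plus strand). The WT stages held 109, 163, 105, 20.1 and 9.01 CPM of all UMIs and the DKO stages 109, 163, 113, 29.1 and 8.54 CPM. Both libraries thus peaked at 15 to 40%, at the same level, and the ratio was away from 0 only at 75 to 90%, where it was 0.54 on the log2 scale (0.33 to 0.74). In that stage 56.9% of genes lay below the Fbxo7 ratio, so this value is no result about Fbxo7. The ratio turned to -0.11 (-0.29 to 0.07) over all cells of 75% or more. An antisense gene shares 314 exon bases with Fbxo7 on the other strand, and an antisense gene shares 365 with Mkrn1. Zcchc14 shares 58 with Map1lc3b, also on the other strand. On the same strand the protein-coding gene Npm2 shares 39 exon bases with Xpo7. The part of these overlaps in the counts was not tested.

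Trim58, an erythroid ubiquitin ligase that promotes loss of the microtubule motor dynein before enucleation (chromosome 11, 58640465 to 58652404, plus strand), was at 11.2, 26.3, 63.1, 12.6 and 1.11 CPM of all UMIs in WT. In DKO it was at 7.52, 14.99, 55.5, 28.8 and 4.34 CPM. The log2 ratio changed sign along the stages, from -0.81 (-1.23 to -0.40) at 15 to 40% to 1.2 (0.96 to 1.44) at 75 to 90%, and was 0.46 (0.24 to 0.69) over all cells of 75% or more. The 90% stage rested on 8 UMIs in WT and 92 in DKO.

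Mkrn1, a RING-type ubiquitin ligase (chromosome 6, 39397804 to 39420462, minus strand), was at 277, 536, 1610.2, 2652 and 1922 CPM of all UMIs in WT, and at 259, 434, 1094, 2423 and 2036 CPM in DKO. It was at 14.6 UMIs per WT cell and 20.4 per DKO cell in the 75 to 90% stage, where 99.7% and 99.4% of cells had at least 1. DKO was lower at 40 to 75%, with a log2 ratio of -0.56 (-0.59 to -0.52), and between -0.30 and 0.08 in the other 4 stages, with -0.18 over all cells of 75% or more. The hemoglobin-matched ratios of Mkrn1 and Bnip3l changed sign with the scale, from -0.08 and -0.06 for all UMIs to 0.11 and 0.12 for non-hemoglobin UMIs.

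Xpo7 encodes an exportin that carries proteins, histones among them, out of the nucleus of maturing erythroblasts (chromosome 14, 70654246 to 70766628, minus strand). Its course was the sharpest. In WT the 5 stages held 39.2, 267, 1564, 362 and 21.1 CPM of all UMIs, and in DKO 37.3, 175, 1618, 1242 and 39.6 CPM. Both libraries reached the top between 70 and 75% hemoglobin, at 2728 CPM in WT and 3518 in DKO, and fell steeply after 80%, to 77.2 CPM of all UMIs in WT and 250.3 in DKO at 85 to 90%. In the 65 to 70% bin 89.95% of WT cells and 93.8% of DKO cells had an Xpo7 UMI, against 34.4% and 17.9% in the 40 to 45% bin and 9.10% and 16.1% in the 90 to 95% bin. Neutrophils, which are not an Xpo7-rich lineage, held UMIs in 17.2% of WT and 19.6% of DKO cells at median depths of 4103 and 4412 UMIs. By share of cells the fullest erythroid cells were thus no higher than that background, though most of their UMIs are hemoglobin. As CPM of non-hemoglobin UMIs, Xpo7 was at 251 in the WT 90 to 95% bin and at 47.0 in WT neutrophils. With every cell of the 40 to 75% stage thinned to 1000 UMIs the share was 54.7% in WT and 44.8% in DKO, against 4.04% and 4.41% in neutrophils.

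**Figure D3:**
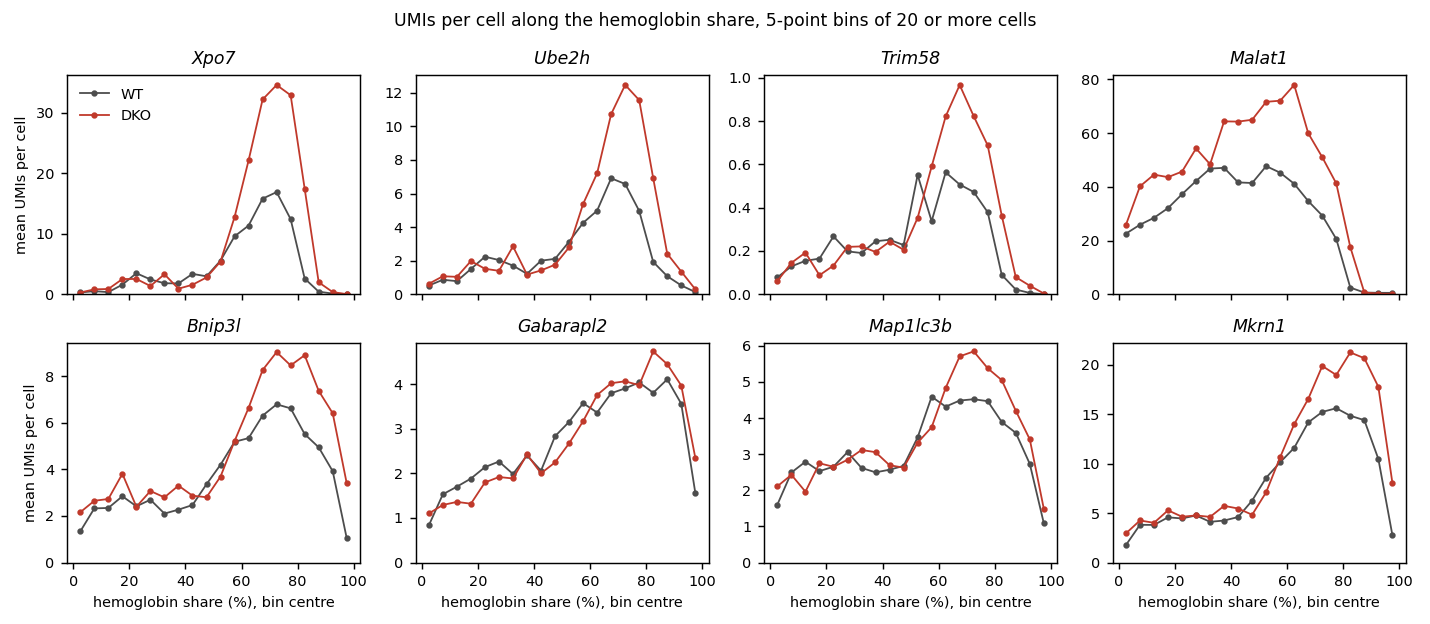
Mean UMIs per cell (y axis) in 5-point bins of hemoglobin share (x axis, percent, bin centre) for 7 members and Malat1 in WT (grey) and DKO (red), bins of 20 or more cells. Xpo7, Ube2h and Trim58 form a peak at 60 to 80% hemoglobin, whereas Bnip3l, Gabarapl2, Map1lc3b and Mkrn1 remain present past 85%.

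Xpo7 was also spread unevenly over the cells of 1 stage. In the 40 to 75% stage the median was 6 UMIs per WT cell, the 90th percentile 27, the highest cell 74, and 27.5% of cells had none. DKO cells had a median of 3, a 90th percentile of 55, a highest cell of 284, and 39.0% with none. A Poisson spread at the same overall share would leave 0.426% of WT and 1.22% of DKO cells without an Xpo7 UMI. The variance was 16.7 times the Poisson value in WT and 43.5 times in DKO, where it was 7.30 and 15.2 times for Ube2h and between 1.17 and 7.64 times for the other 8 members. The stage spans the steep rise of Xpo7 from 40 to 75% hemoglobin, and the part of that rise in this spread was not tested.

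Xpo7 gave the widest ratio between the libraries in the 75 to 90% stage, a log2 ratio of 1.78 (1.74 to 1.82) from 7441 WT and 14912 DKO UMIs. It was 0.79 (0.75 to 0.83) over all cells of 75% or more, 0.58 after matching on hemoglobin share, and 0.40 after matching on the rank of the hemoglobin share within each library. In the lowest stage it was -0.07 and at 40 to 75% 0.05, and at 15 to 40% it was -0.61 (-0.73 to -0.49). Outside the erythroid lineage the interval of the Xpo7 ratio lay above 0 in 7 of 9 lineages with at least 100 UMIs, with log2 ratios from 0.13 to 1.67, so a higher DKO value was found outside erythroid cells too. How many of all genes had such intervals there was not computed, so this count is no result about Xpo7. In plasma cells, with 51 WT and 40 DKO UMIs, it was -0.49 (-1.13 to 0.13). At 90% or more the Xpo7 levels of 21.1 and 39.6 CPM of all UMIs were below those of neutrophils, 46.7 and 55.5 CPM. Most UMIs of this stage are hemoglobin. By non-hemoglobin UMIs Xpo7 was at 251 CPM in WT and 560 in DKO in the 5-point bin that starts at 90%. No lineage outside the erythroid one was above 109 in WT or 329 in DKO on that scale, so the order was reversed there.

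**Figure D4:**
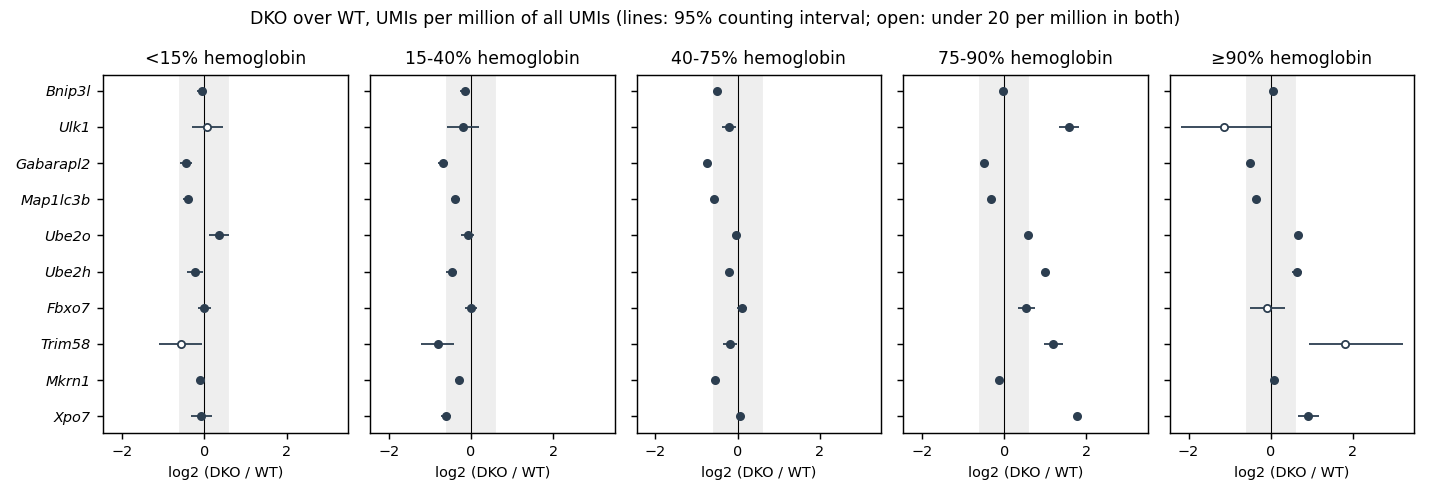
Log2 ratio of DKO over WT (x axis, CPM of all UMIs) for the 10 members in the 5 stages, with lines for the 95% counting interval, grey for less than 1.5-fold and open points for members under 20 CPM in both libraries. Gabarapl2 and Map1lc3b lie left of 0 in every stage, and Xpo7 moves from -0.61 at 15 to 40% to 1.78 at 75 to 90%.

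Of the 50 member and stage pairs, only those with at least 20 CPM in a library were counted. These were 8, 10, 10, 10 and 7 members from the lowest to the highest stage. Among them 4 pairs were past 1.5-fold lower in DKO and 7 were past 1.5-fold higher. In the 15 to 40% stage 3 of 10 members were lower (Gabarapl2, Trim58 and Xpo7) where 3.98% of 4426 genes were, and none was higher where 3.05% were. Trim58 passed the filter there only through WT, with 26.3 CPM beside 14.99 in DKO, so the filter favored its call. With a filter of 50 CPM 2 of 8 members were lower in this stage, where 3.05% of 2626 genes were. At 40 to 75% 1 of 10 was lower, Gabarapl2, where 7.07% of 2957 genes were, and none was higher where 13.7% were. At 75 to 90% 4 of 10 were higher (Xpo7, Ulk1, Trim58 and Ube2h), which is the share of all genes, 40.5% of 778, and is therefore no result about the members, and none was lower where 17.2% were. Ulk1 and Trim58 passed the filter in that stage only through DKO. At 90% or more 3 of the 7 members past the filter were higher (Xpo7, Ube2o and Ube2h) where 12.1% of 371 genes were, and none was lower where 33.7% were. In the lowest stage none of 8 was past 1.5-fold in either direction, where 3.28% of 6038 genes were lower and 3.10% higher. The median log2 ratio of the 10 members was -0.08, -0.34, -0.21, 0.56 and 0.06 from the lowest to the highest stage, beside 0.11, 0.03, 0.12, 0.35 and -0.26 over all genes tested. Over all cells of 75% or more the members' median was 0.11, beside -0.34 over 597 genes. With all cells of 75% or more as 1 stage, 1 pair was past 1.5-fold higher in place of 7, which is Xpo7, and 4 were lower.

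From the lowest to the 40 to 75% stage 9 members were past 1.5-fold higher in both libraries as CPM of all UMIs, all but Fbxo7, where 7.1% of 5849 WT genes and 7.74% of 5946 DKO genes were. By non-hemoglobin UMIs all 10 were, where 20.2% and 20% of genes were. From the lowest to the 75 to 90% stage 7 members were past 1.5-fold higher in both libraries as CPM of all UMIs, all but Ulk1, Trim58 and Fbxo7, where 1.76% of 5747 WT genes and 2.47% of 5837 DKO genes were. By non-hemoglobin UMIs the count was 9, with Fbxo7 outside, where 8.54% and 10.1% of genes were. Mkrn1 had a log2 ratio between these stages of 3.26 (3.19 to 3.33) in WT and 3.22 (3.16 to 3.29) in DKO, and Ube2o of 3.32 (3.15 to 3.52) and 3.54 (3.39 to 3.70). Xpo7 stood further apart, at 3.2 (3.03 to 3.40) in WT and 5.05 (4.88 to 5.23) in DKO, and by the bound above up to 75% of its WT UMIs in the lowest stage could be free RNA.

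Malat1, a long noncoding RNA held in the nucleus, served as a readout of the nucleus. It was at 2838, 7149, 14011, 3741 and 1188 CPM of non-hemoglobin UMIs across the WT stages and at 2519, 6312, 14459, 8850 and 353 across the DKO stages, so it peaked at 40 to 75% in both. On this scale Xpo7 fell from 3825 to 2572 between 40 to 75% and 75 to 90% in WT, and went from 3884 to 8225 in DKO. Among cells of 75% or more hemoglobin, 318 of 5076 WT cells (6.26%, interval 5.61 to 6.97%) and 365 of 4010 DKO cells (9.10%, 8.23 to 10.0%) had at least 5 Malat1 UMIs, and 54.7% and 74.2% had none. Median depth was 5520 and 5223 UMIs in the 2 WT stages and 8277 and 7942.5 in the DKO stages, and the summed neutrophil markers stood at 908 and 749 CPM in WT and 473 and 309 CPM in DKO. Their part in these shares was not tested. Malat1-rich late cells had a median hemoglobin share of 78.1% in WT and 78.7% in DKO, against 88.4% and 91.6% for those without it.

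The members separated along this readout. As CPM of non-hemoglobin UMIs, Xpo7 was at 9765 in Malat1-rich WT cells and 799.9 in WT cells without Malat1, and at 15241 and 1135 in DKO. The log2 ratio of Malat1-rich over Malat1-free cells was 3.61 in WT and 3.75 in DKO for Xpo7, 2.87 and 2.22 for Trim58, 2.85 and 3.75 for Ulk1, 1.33 and 1.27 for Ube2h, and 1.2 and 0.85 for Fbxo7. It was below 0 for the other 5 members in both libraries: Gabarapl2 had -1.02 and -1.44, Mkrn1 -0.81 and -1.37, Map1lc3b -0.65 and -0.89, Bnip3l -0.63 and -1.08, and Ube2o -0.28 and -0.63. Thus the 5 members on each side were the same in both libraries, and hemoglobin share differs along with Malat1 in this split. The share of all genes on each side of 0 was not computed, so these counts are no result about the members.

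**Figure D5:**
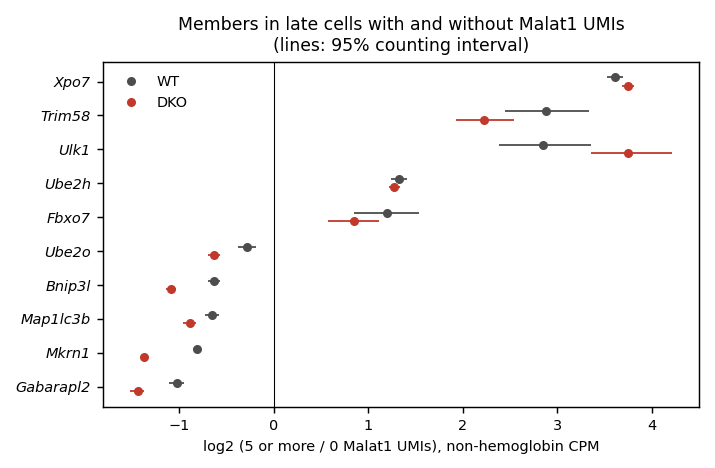
Log2 ratio of the level in late erythroid cells (75% or more hemoglobin) with at least 5 Malat1 UMIs over that in late cells with none (x axis, CPM of non-hemoglobin UMIs) for the 10 members in WT (grey) and DKO (red), with lines for the 95% counting interval. Xpo7, Trim58, Ulk1, Ube2h and Fbxo7 lie right of 0 and the other 5 members left of it in both libraries.

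Within the Malat1-rich late cells Xpo7 was higher in DKO by a log2 ratio of 0.64 (0.59 to 0.69) and Ube2h by 0.47 (0.39 to 0.55), while Gabarapl2 was lower, at -0.57 (-0.67 to -0.47), all by non-hemoglobin UMIs. Trim58 had a ratio of 0.17 with an interval that spans 0 (-0.13 to 0.48). In Malat1-free late cells the ratio was 0.50 (0.41 to 0.60) for Xpo7 and 0.74 (0.69 to 0.80) for Ube2o. As CPM of all UMIs it was 0.06 (-0.03 to 0.16) for Xpo7 and 0.30 (0.25 to 0.35) for Ube2o.

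Barcodes with little RNA and few hemoglobin UMIs held more Xpo7 and Ube2h, by non-hemoglobin UMIs, than the 40 to 75% stage. A group of 188 WT and 91 DKO barcodes had under 15% hemoglobin but a late erythroid marker score, with medians of 924.5 and 1198 UMIs, and was kept out of the stages. In it Xpo7 was at 10157 and Ube2h at 6182 CPM of non-hemoglobin UMIs in WT, with 9070 and 4507 in DKO, and Malat1 31366 and 22710. Xpo7 was thus 1.41 (1.34 to 1.48) above the 40 to 75% stage on the log2 scale in WT and 1.22 (1.14 to 1.31) in DKO, and Ube2h 1.87 (1.78 to 1.95) and 1.65 (1.52 to 1.77). Gabarapl2 was at 211 in WT and, from 3 UMIs, at 24.1 in DKO, and Bnip3l at 570 and 410.4, each below its level at 40 to 75%. Of all genes, 5.07% in WT and 0.384% in DKO lay below the Gabarapl2 ratio, and 12.3% and 18.2% below that of Bnip3l. Trim58 was above its level at 40 to 75% in WT, by 1.14 (0.74 to 1.48), where 80.7% of genes lay below its ratio. In DKO its ratio was 0.20 with an interval that spans 0, where 46.0% of genes lay below it. Ribosomal protein genes took 5.20% of the non-hemoglobin UMIs of these barcodes in WT and 0.892% in DKO. Whether they are nuclei, damaged cells or another state was not tested.

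Inside the 40 to 75% stage Xpo7 was lowest in the cells of most UMIs. WT cells under 4000 UMIs had Xpo7 at 8421 CPM of non-hemoglobin UMIs, those of 4000 to 10000 at 4234 and those of 10000 or more at 1254. The DKO values were 6168, 8698 and 2482, so in DKO the middle class was the highest. The median hemoglobin share was 62.9, 62.7 and 54.9% in these WT classes and 54.9, 65.8 and 56.2% in the DKO classes. Between libraries the Xpo7 log2 ratio was -0.45 (-0.59 to -0.31) under 4000 UMIs, 1.04 (1.0 to 1.08) at 4000 to 10000 and 0.98 (0.89 to 1.08) at 10000 or more, although it was 0.02 for the stage as a whole. The classes held 221, 919 and 152 WT cells and 105, 419 and 739 DKO cells. Gabarapl2 was lower in DKO in all 3 classes, with log2 ratios of -1.21 (-1.69 to -0.81), -0.35 (-0.45 to -0.26) and -0.72 (-0.83 to -0.61). Under 4000 UMIs Map1lc3b (-1.01), Bnip3l (-0.75) and Mkrn1 (-0.71) were lower too, and Fbxo7 had 0.41 (-0.29 to 1.01). At 10000 or more the first 3 of these had -0.48, -0.29 and -0.40, while Ube2h had 0.64 and Ube2o 0.42. The shares of all genes in these classes were not computed, so these ratios are no result about single members.

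Mitochondrially encoded transcripts, a readout of the organelle that Bnip3l and the ATG8 proteins clear, took 2.04, 1.46, 1.13, 2.08 and 1.99% of non-hemoglobin UMIs across the WT stages and 2.28, 1.37, 0.904, 1.87 and 2.08% across the DKO stages. As a share, both libraries were lowest at 40 to 75%. The total beneath this share shrinks with the stages. WT had 3569562 non-hemoglobin UMIs in 1292 cells at 40 to 75% and 607159 in 1341 cells at 90% or more. DKO had 5697548 in 1263 cells and 1571447 in 2584 cells. The higher late share is therefore not a higher level per cell. Cells above 20% mitochondrial UMIs had been left out.

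Genes whose course over the 5 stages of both libraries was closest to each member are given as a description, since stages of 1 library share that library and hemoglobin content. Over these 10 points, the 3 nearest of 6852 genes had a Pearson r of log2 levels of at least 0.973. Bnip3l and Mkrn1 shared Slc25a39 and Slc48a1, a mitochondrial glutathione carrier and a heme transporter, among their nearest 3. Bpgm, the enzyme of 2,3-bisphosphoglycerate synthesis, was nearest to Map1lc3b (0.997) and among the nearest 3 to Mkrn1 (0.997), and Isca1, an iron-sulfur cluster protein, was nearest to Gabarapl2 (0.998). Tent5c was nearest to Ube2o (0.998), Tfdp2, a partner of E2F factors, to Ube2h (0.996), Slfn14 to Xpo7 (0.994), Samd11 to Fbxo7 (0.992) and Ift57 to Trim58 (0.984).

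Among 114 further genes of autophagy, ubiquitin and the CTLH complex, and the nucleus, 113 were in the files and 34 passed 20 CPM in the 75 to 90% stage. There 13 were past 1.5-fold higher in DKO and 1 lower, beside 40.5% higher and 17.2% lower over all 778 genes, so these counts are no result about the list. The median log2 ratio was 0.43 beside 0.35 over all genes, and no value for all cells of 75% or more was computed. By list, 5 of 9 autophagy genes, 5 of 20 ubiquitin genes and 3 of 5 nucleus genes were higher. The highest ratios were those of Foxo3, a transcription factor of erythroid maturation and autophagy, with 1.56 (1.45 to 1.67), Rb1cc1, a subunit of the Ulk1 complex, with 1.54 (1.38 to 1.72), and Ranbp10, of the CTLH complex, with 1.40 (1.33 to 1.47). The lowest were those of Ran, the GTPase of nuclear transport, with -1.04 (-1.35 to -0.75), and of the cell cycle E2 enzymes Ube2c with -0.52 and Ube2s with -0.41. From the lowest to the 75 to 90% stage 12 of 88 list genes were past 1.5-fold higher in WT and 72 lower by all UMIs, where 1.76% of genes were higher and 96.8% lower. By non-hemoglobin UMIs 29 were higher and 48 lower, where 8.54% and 82.9% of genes were. The 3 listed genes with the largest WT gains by all UMIs were Ube2l6 (log2 3.28), Ube2b (2.83) and Rnf10 (2.09). Ube2l6 is an E2 of ubiquitin and ISG15, and it stood at 973 CPM in WT and 794 in DKO at 75 to 90%.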

How the data were processed

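Cells flushed from marrow were sequenced with a Chromium 3′ v3 kit. The deposited files hold raw UMI counts that the authors made with Cell Ranger 7.1.0 (file headers) on mm10 (submitters' processing notes). Cell Ranger 7 counts intron reads by default, and whether this was changed is not given in the sources used here, so nuclear precursor RNA may be counted; the members with the longest spans are Xpo7 (112 kb, 83.1% intron) and Ube2h (93.3 kb, 94.9% intron), and its part in their values was not tested. The WT file lists 1518290 barcodes, empty droplets included, and the DKO file 14142 barcodes of 500 UMIs or more. WT cells were therefore called by a UMI threshold (4870) and, at 500 UMIs or more, a multinomial test against empty droplets (10000 simulations, false discovery rate 0.01).

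Cells above 20% mitochondrial UMIs were left out. A cell was erythroid where erythroid markers scored highest and reached 5 UMIs; cells whose score for another lineage exceeded 0.5 of the erythroid score were left out (173 WT, 69 DKO). No doublet caller was run, and doublets of erythroid cells cannot be seen. UMIs were summed per library and stage. Ratios had 1 count added to each sum and carry exact conditional binomial intervals, levels exact Poisson and shares Clopper-Pearson intervals (scipy 1.17.1). Past 1.5-fold means a log2 ratio of at least 0.585 in size, among genes of 20 CPM in either library. CPM is of all UMIs unless stated. The ratio step was tested on simulated data. Named genes were the members, the 3 genes nearest each member by Pearson r, and the 3 highest, 3 lowest and 3 most raised of the further list. Members and lists were chosen with earlier results of these data known. The rule that put late-scoring barcodes outside the lowest stage, the UMI and Malat1 classes and the pooling of cells of 75% or more were chosen after the data were seen. Positions come from GENCODE M21 (GRCm38), which holds 32158 of the 32285 feature identifiers, and promoter sequences from RefSeq (GRCm38.p6). Comparisons were made without tests, as each genotype has 1 library. The gene nearest to Ulk1 is not reported here.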

Additional observations from a re-analysis of the deposited data

How the results depend on the processing

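No paired analysis was possible because each genotype has 1 library. The 4 pairs of member and stage that were past 1.5-fold lower in DKO became 9 with a median-of-ratios size factor, 2 with hemoglobin share alone in place of marker scores, 7 with stage boundaries at 20, 45, 70 and 92%, and 7 with late-scoring barcodes kept in the lowest stage. The other 12 of 16 alternatives gave 3 to 6. The 7 pairs that were past 1.5-fold higher became 1 with all cells of 75% or more as 1 stage, and were 6 to 10 under the other 13 of 14. The median hemoglobin-matched log2 ratio of 0.13 became 0.34 by non-hemoglobin UMIs, 0.0683 with the median-of-ratios size factor, 0.21 with hemoglobin share alone, 0.16 with free RNA subtracted and 0.092 with late-scoring barcodes kept, and was 0.11 to 0.15 in the other 10 of 15. The causes were not tested. The 7 members past 1.5-fold higher from the lowest to the 75 to 90% stage in both libraries were 5 to 10 under 14 alternatives. Gabarapl2 and Map1lc3b kept a matched ratio below 0, and Xpo7, Ube2o, Ube2h, Ulk1, Trim58 and Fbxo7 one above 0, under all 15 alternatives run for it, with ranges of -0.62 to -0.37 for Gabarapl2, -0.53 to -0.25 for Map1lc3b and 0.40 to 0.85 for Xpo7. Bnip3l and Mkrn1 changed sign by non-hemoglobin UMIs. Pooling cells of 75% or more, matching by rank, the minimum of 4000 UMIs and the handling of late-scoring barcodes were added after the data were seen. Depth limits Ulk1 and Trim58 at 90% or more, where WT had 14 and 8 UMIs.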
